A study of Mus musculus with 21 samples.

Results

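The 9 genes Fcer2a, Cd38, Klf2, Hhex, Ski, Zbtb32, Cd80, Nt5e and Pdcd1lg2, which mark naive or memory B cells or regulate the memory fate, were followed in germinal centre B cells of mice with and without a B cell knockout of Ptbp1. They were chosen by symbol, and each matched 1 of the 47729 gene identifiers listed in every library, so all 9 were found. All 9 also passed the filter on low counts that left 15789 genes for testing. The study sorted light zone (LZ) and dark zone (DZ) germinal centre B cells from spleens of C57BL/6 mice 7 days after immunisation with the hapten-protein conjugate NP-KLH in alum, and sequenced polyadenylated RNA. The 4 groups, of 4 libraries each, were LZ cKO, LZ control, DZ cKO and DZ control. The cKO (conditional knockout) mice were CD79acre/+Ptbp1fl/fl and the controls CD79a+/+Ptbp1fl/fl, so both genotypes carried the floxed Ptbp1 alleles and only the cKO carried Cre, inserted at Cd79a and active in the whole B lineage. Effects of the Cre allele and of PTBP1 loss therefore cannot be told apart, and the control is not a Cre control. Splenocytes of 3 to 5 mice sharing genotype and sex were pooled for each replicate, the LZ and DZ libraries of a replicate came out of 1 pool, and replicates 1 to 4 were sorted on days 1 to 4, with males on days 1 and 2 and females on days 3 and 4. PTBP1 contacts with RNA were mapped separately by iCLIP, which marks crosslinked nucleotides, in 5 preparations of splenic B cells stimulated with lipopolysaccharide (LPS) for 48 h, which are not germinal centre cells.

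In a germinal centre, B cells divide and mutate their antibody genes in the dark zone and compete for T cell help in the light zone, from which some leave as memory cells. Naive follicular B cells carry CD23, the low-affinity IgE receptor encoded by Fcer2a, and CD38, an ectoenzyme that consumes NAD. Mouse germinal centre cells lower CD38, and memory cells regain it. KLF2 is a transcription factor of quiescent lymphocytes that maintains homing receptors. HHEX and SKI are transcriptional regulators that act in the decision for memory fate in mice, and ZBTB32 is a repressor that restrains recall responses of memory cells. CD80, CD73 (encoded by Nt5e) and PD-L2 (encoded by Pdcd1lg2) are the surface proteins by which mouse memory B cells are divided into subsets. PTBP1 is an RNA-binding protein that controls splicing and other steps of RNA processing.

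Gene-assigned reads numbered 26823882 to 34240096 per library, and levels are CPM (reads per fixed library total, with TMM-scaled library sizes). Ptbp1 itself averaged 98.6 ± 16.4 CPM in LZ cKO and 382 ± 28.9 CPM in LZ control libraries, and 103 ± 9.45 CPM in DZ cKO and 444 ± 31.4 CPM in DZ control libraries (SD, n = 4 each), and no cKO library overlapped a control one. Bcl6, a factor that defines germinal centre B cells, averaged 254 to 316 CPM over the 4 groups. All 7 light zone markers tested were higher in LZ than in DZ libraries of both genotypes, and 5 of 7 dark zone markers in cKO and 4 of 7 in control libraries were lower. Macrophage markers were present in every library and uneven: the sum of 10 such genes was 79.3 to 497 CPM in LZ cKO, 26.7 to 398 CPM in LZ control, 52.4 to 1254 CPM in DZ cKO and 25.3 to 422 CPM in DZ control libraries, none of the 10 was at 0 in any group, and in each group sort day 2 was highest. On every sort day and in both zones the sum was higher in the cKO than in the control library. All 10 genes were higher in value in cKO in both zones. Their median log2 fold change, cKO over control, was 0.82 in the light and 2.385 in the dark zone, with 0 called by the test given below. The part of macrophages in the cKO against control values of the 9 genes was not tested. Within a bulk library, fewer cells of a type and less RNA per cell cannot be told apart. A gene was called different when edgeR's quasi-likelihood test gave an adjusted p (Benjamini-Hochberg over all tested genes) below 0.05.

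Fcer2a, Cd38 and Hhex were higher in the light zone in both genotypes and Nt5e was lower there in cKO cells, while none of the 9 genes was called between cKO and control in either zone, except Nt5e in the light zone when libraries were paired by sort day. The zone difference of Nt5e had the same direction in control cells, where only some alternative fits called it. In cKO cells 6 of the 9 genes differed between zones, 5 of them higher in the light zone, against 9.09% of all tested genes. In control cells 4 of the 9 differed, all higher in the light zone, against 7.49% of all tested genes. The 9 were chosen with earlier results of these data known, so these counts cannot show an enrichment. The median log2 fold change of the 9, light over dark zone, was 0.93 in cKO and 1.06 in control cells, and the medians over all genes tested were 0.00 in each genotype.

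The regions before the annotated starts are shown for Fcer2a, Cd38, Hhex and Nt5e, of which the first 3 were higher in the light zone without overlap in both genotypes and Nt5e was lower without overlap in cKO cells, with overlap and no call by the test given above in control cells. Each line holds the 250 bases before the RefSeq start (GRCm38.p6), 5′ to 3′ on the gene's strand, at chr8:3694175-3694424, minus strand for Fcer2a, chr5:43868559-43868808, plus strand for Cd38, chr19:37434591-37434840, plus strand for Hhex and chr9:88327359-88327608, plus strand for Nt5e. Capitals mark matches to CACCC on either strand, the core bound by KLF-type factors.
Fcer2a: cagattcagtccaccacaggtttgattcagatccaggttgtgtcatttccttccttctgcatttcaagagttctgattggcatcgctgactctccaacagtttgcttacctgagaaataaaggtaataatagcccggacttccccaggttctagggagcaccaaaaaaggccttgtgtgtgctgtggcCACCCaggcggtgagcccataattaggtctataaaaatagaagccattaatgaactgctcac
Cd38: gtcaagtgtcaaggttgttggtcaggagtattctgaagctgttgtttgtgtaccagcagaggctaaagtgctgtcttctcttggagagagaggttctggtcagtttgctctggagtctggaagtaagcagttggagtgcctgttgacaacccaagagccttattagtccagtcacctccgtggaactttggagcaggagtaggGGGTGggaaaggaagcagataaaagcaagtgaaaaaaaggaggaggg
Hhex: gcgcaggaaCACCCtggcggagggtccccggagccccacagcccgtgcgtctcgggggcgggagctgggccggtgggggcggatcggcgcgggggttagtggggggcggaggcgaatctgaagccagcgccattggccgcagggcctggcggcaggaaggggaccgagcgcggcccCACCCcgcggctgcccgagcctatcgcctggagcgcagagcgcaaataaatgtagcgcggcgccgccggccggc
Nt5e: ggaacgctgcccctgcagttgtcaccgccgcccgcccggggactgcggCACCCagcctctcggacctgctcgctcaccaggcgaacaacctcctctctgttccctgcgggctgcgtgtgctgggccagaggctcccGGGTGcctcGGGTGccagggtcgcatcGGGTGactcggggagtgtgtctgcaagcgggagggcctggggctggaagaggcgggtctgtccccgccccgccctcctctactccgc
The core was found in the windows of all 9 genes, and in 52% of the 32851 mouse windows of the same length. TTCNNNNGAA, a site form bound by STAT6, was present in the Pdcd1lg2 window alone among the 9, and in 5.85% of all windows. TTCNNNGAA (7.02% of all windows), GGGNNTTTCC (1.41%) and CAGGTG (17.2%) had no match in any of the 9 windows. Both strands were searched, and no 2 matches overlapped in these windows. A match is a description of letters and not a bound site. The windows of Cd80 and Zbtb32 lie 1503 and 3910 bases inside the annotated gene spans, because the table gives other start sites for them. The 4 printed windows differ in composition, with 46% G and C in Fcer2a and 48.8% in Cd38, against 76% in Hhex and 72% in Nt5e.

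Fcer2a (ENSMUSG00000005540, chr8:3680280-3694174 in mm10, minus strand) gave 1372, 1441, 1135 and 1107 CPM in the 4 LZ cKO libraries, against 416, 495, 293 and 320 CPM in the DZ cKO libraries. It gave 1328, 1077, 1139 and 966.5 CPM in the LZ control libraries, against 362, 368, 338 and 250.0 CPM in the DZ control libraries. The lowest light zone library thus stood far above the highest dark zone library in both genotypes. The fitted log2 fold change, light over dark zone, was 1.73 ± 0.17 (SE) in cKO cells (adjusted p = 1.69e-05) and 1.78 ± 0.17 in control cells (adjusted p = 1.40e-05), with 95% intervals of 1.37 to 2.09 and 1.41 to 2.14. CD23 transcript was thus 3.32-fold higher in the light zone by group means in cKO and 3.42-fold higher in control libraries, and higher on 4 of 4 sort days in each. In level, the order was LZ cKO, LZ control, DZ cKO and DZ control, and neighbours of the same zone overlapped.

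Cd38 (ENSMUSG00000029084, chr5:43868809-43912374, plus strand) gave 188, 249, 120 and 138 CPM in LZ cKO libraries, against 50.9, 75.2, 50.1 and 36.2 CPM in DZ cKO libraries. In controls it gave 173, 145, 111 and 141 CPM in the light zone, against 45.3, 57.0, 61.3 and 44.5 CPM in the dark zone. Here too the zones did not overlap in either genotype, and the difference was seen on each of the 4 days. The log2 fold change was 1.71 ± 0.24 in cKO cells (adjusted p = 0.000367) and 1.45 ± 0.24 in control cells (adjusted p = 0.00125). The order of the 4 group means was the same as for Fcer2a, with DZ cKO (53.1 ± 16.2 CPM) and DZ control (52.0 ± 8.42 CPM) closer than their spread.

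Hhex (ENSMUSG00000024986, chr19:37434841-37440731, plus strand), which encodes the memory-fate regulator, had the largest zone difference of the 9. Its levels were 93.3, 106, 59.3 and 46.4 CPM in LZ cKO libraries, against 15.04, 21.9, 9.10 and 6.21 CPM in DZ cKO libraries. Control libraries gave 82.5, 74.5, 53.7 and 45.2 CPM in the light zone, against 11.5, 15.2, 11.8 and 4.43 CPM in the dark zone. No dark zone library reached the lowest light zone one, and the log2 fold change was 2.54 ± 0.42 in cKO cells (adjusted p = 0.00115) and 2.57 ± 0.42 in control cells (adjusted p = 0.00113). Levels also moved with the sort day: in LZ cKO, LZ control and DZ cKO both male libraries (days 1 and 2) lay above both female ones (days 3 and 4), and in DZ control the day 3 library lay between the male ones.

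Nt5e (ENSMUSG00000032420, chr9:88327609-88372089, plus strand), which encodes the ecto-5′-nucleotidase CD73, went the other way. It gave 9.96, 21.3, 27.9 and 26.8 CPM in LZ cKO libraries, against 44.3, 55.6, 69.9 and 85.1 CPM in DZ cKO libraries, and these ranges did not overlap. In controls it gave 21.2, 30.3, 31.6 and 43.4 CPM in the light zone, against 36.8, 68.3, 64.5 and 95.1 CPM in the dark zone, where the lowest DZ library lay below the highest LZ one. Within each pool of mice, however, the light zone library was the lower on 4 of 4 days in both genotypes. The log2 fold change was -1.57 ± 0.33 in cKO cells (adjusted p = 0.0071), a call, and -1.07 ± 0.33 in control cells (adjusted p = 0.0615), not a call. With the sort day as a block, which compares the zones within days, the control value was -1.04 with adjusted p = 0.000176. DESeq2 also called it (-1.065, adjusted p = 0.0107). So did edgeR with upper-quartile scaling (adjusted p = 0.0476) and with a filter of CPM of at least 1 in at least 4 libraries (adjusted p = 0.0486). By edgeR it was not called without a filter (adjusted p = 0.102) or with only the 2 groups in the fit (adjusted p = 0.0508). Leaving out 1 library or day gave adjusted p of 0.0152 to 0.242. The cKO call was lost without day 2 (adjusted p = 0.0624) and without day 3 (adjusted p = 0.0526), with log2 fold changes of -1.62 and -1.68, and it was lost in 4 of 21 alternatives in all.

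Zbtb32 (ENSMUSG00000006310, chr7:30589680-30602819, minus strand), the repressor of recall responses, gave 6.49, 5.79, 7.40 and 5.39 CPM in LZ cKO libraries, against 1.93, 3.47, 3.59 and 2.77 CPM in DZ cKO libraries, without overlap. In controls it gave 9.37, 14.3, 7.59 and 6.38 CPM in the light zone, against 3.76, 3.07, 6.39 and 4.65 CPM in the dark zone, where 1 DZ library reached the lowest LZ one. The log2 fold change was 1.09 ± 0.29 in cKO (adjusted p = 0.0277) and 1.08 ± 0.29 in control cells (adjusted p = 0.0323). Of 21 alternatives, the call was lost in 11 in cKO and in 12 in control cells, and without day 2 the control value was 0.65 (adjusted p = 0.29).

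Pdcd1lg2 (ENSMUSG00000016498, chr19:29410919-29472927, plus strand), encoding PD-L2, gave 19.4, 20.3, 14.2 and 12.4 CPM in LZ cKO libraries, against 11.2, 12.9, 8.32 and 11.2 CPM in DZ cKO libraries, where 1 LZ library lay within the DZ range. Control libraries gave 11.7, 11.9, 12.7 and 13.2 CPM in the light zone, against 6.76, 9.06, 9.52 and 7.75 CPM in the dark zone, without overlap. The log2 fold change was 0.60 ± 0.18 in cKO (adjusted p = 0.0484) and 0.58 ± 0.18 in control cells (adjusted p = 0.0686), so the call in cKO rests on a margin: it was lost in 15 of 21 alternatives. With the day block both genotypes passed, with adjusted p = 0.0345 in cKO and 0.0475 in control cells. DESeq2 also called the control difference (0.58, adjusted p = 0.0293).

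Klf2 (ENSMUSG00000055148, chr8:72319062-72321654, plus strand), the quiescence factor, varied widely between days. It gave 280, 368, 127 and 119 CPM in LZ cKO libraries, against 130.0, 217, 61.1 and 59.4 CPM in DZ cKO libraries. Control libraries gave 131, 199, 86.6 and 100.4 CPM in the light zone, against 46.6, 106, 62.0 and 32.3 CPM in the dark zone. The zones overlapped in both genotypes, yet on each of the 4 days the light zone library was the higher, by 0.76 to 1.10 log2 units in cKO and 0.48 to 1.63 in control pools. Without the block the log2 fold change was 0.93 ± 0.48 in cKO (adjusted p = 0.262) and 1.06 ± 0.48 in control cells (adjusted p = 0.229). With it, the values were 0.98 (adjusted p = 0.00608) and 1.10 (adjusted p = 0.00407), so that 7 of the 9 genes were called in each genotype, against 17.3% of all tested genes in cKO and 13.7% in control cells under the same fit.

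Ski and Cd80 were the genes with no call between zones under either fit. Ski (ENSMUSG00000029050, chr4:155154075-155222535, minus strand) gave 6.63, 11.5, 9.97 and 5.10 CPM in LZ cKO libraries, against 8.28, 6.88, 2.35 and 3.47 CPM in DZ cKO libraries. It gave 3.32, 6.71, 4.87 and 6.12 CPM in LZ control libraries, against 1.22, 9.71, 4.55 and 5.49 CPM in DZ control libraries. Its log2 fold change was 0.66 with a 95% interval of -0.41 to 1.73 in cKO cells, and 0.00 with an interval of -1.06 to 1.07 in control cells. Cd80 (ENSMUSG00000075122, chr16:38457430-38495958, plus strand), a ligand of CD28 and CTLA-4, was near the detection limit, with 15 to 77 reads per library and means of 1.14 ± 0.79 CPM in LZ cKO, 1.27 ± 0.41 CPM in DZ cKO, 1.16 ± 0.38 CPM in LZ control and 1.43 ± 0.59 CPM in DZ control libraries. Its intervals, -1.14 to 0.85 in cKO and -1.29 to 0.70 in control cells, lay on both sides of 0, and a difference was not detectable at this depth.

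**Figure D1:**
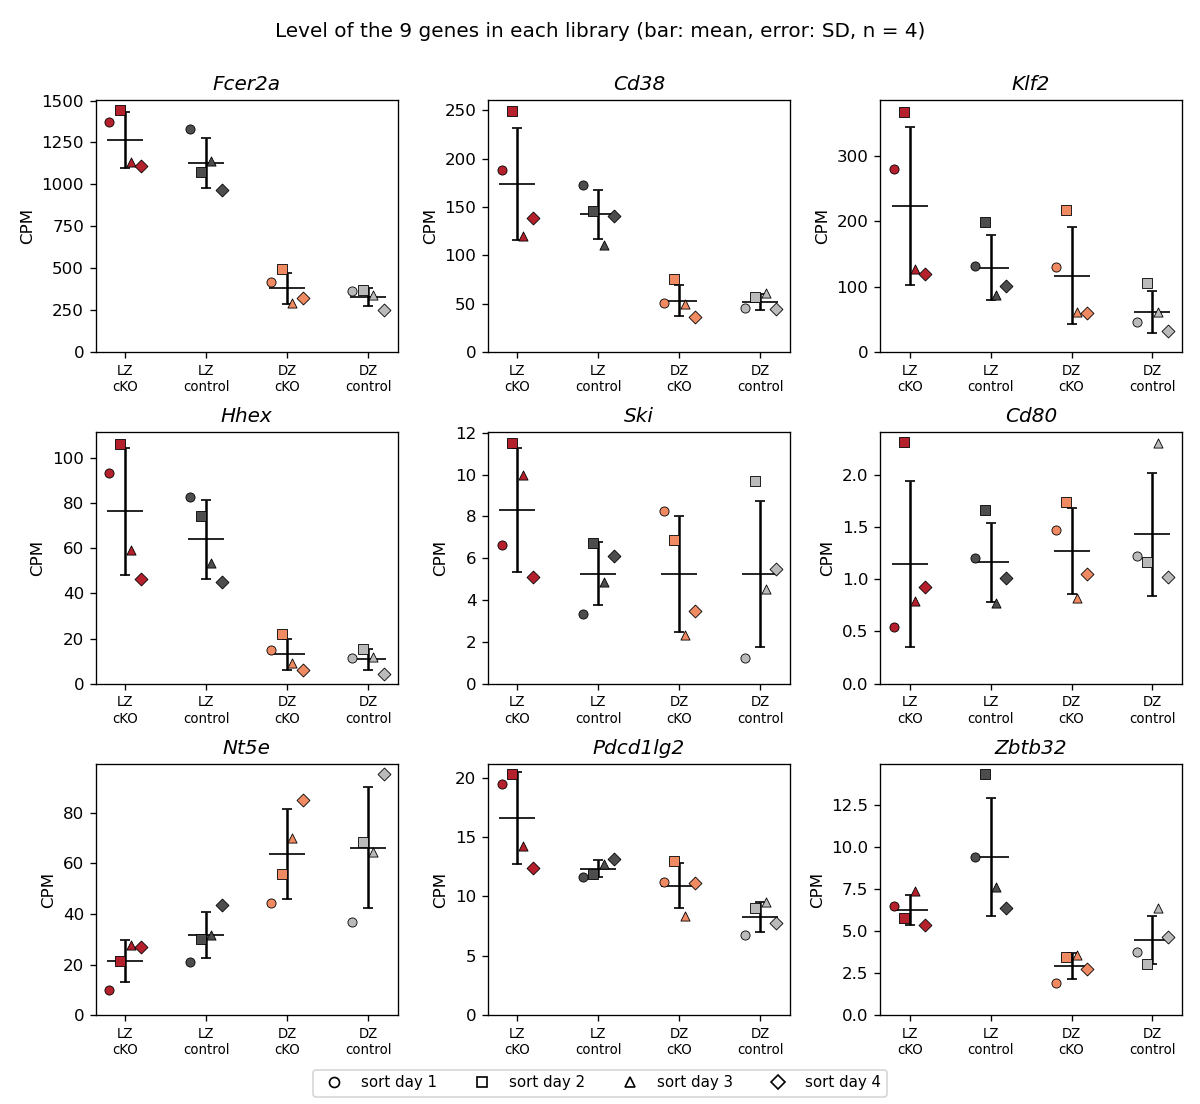
CPM of each of the 9 genes (vertical axes, each panel on its own scale from 0) in the 16 libraries; points are libraries, with the marker shape giving the sort day, bars are group means and error bars the SD of 4 libraries. Light zone points of Fcer2a, Cd38 and Hhex stand clear of the dark zone points in both genotypes, those of Nt5e stand below them in cKO cells and overlap them in control cells, and Ski and Cd80 show no separation.

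The library kit keeps no strand, so reads in overlaps of a gene with a neighbour cannot be told apart. By RefSeq spans, Fcer2a overlaps Trappc5, Cd38 the long non-coding RNA Gm16015, Zbtb32 the long non-coding RNA Gm32082, and Cd80 the pseudogenes Gm8590 and Ck-ps3 and the long non-coding RNA Gm41453.

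None of the 9 genes was called between cKO and control without pairing by sort day (with it Nt5e was, as given below), in a comparison that asks what losing PTBP1 in B cells did in each zone. The share called among all tested genes was 1.08% in the light zone and 0.627% in the dark zone, so 0 of 9 is near this background. DESeq2 also called none of the 9 in either zone. At an unadjusted p below 0.05 Pdcd1lg2 was the single one of the 9 in each zone, against 13.4% of all genes in the light and 11.4% in the dark zone. No gene's cKO range was clear of its control range in either zone, against 8.65% and 6.38% of all tested genes. The median log2 fold change of the 9 was 0.25 in the light and 0.03 in the dark zone, and over all tested genes 0.02 and 0.01.

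For the genes that mark naive cells, the size of a change that remains possible differs. Fcer2a averaged 1264 ± 168 CPM in LZ cKO and 1128 ± 151 CPM in LZ control libraries, and 381 ± 92.5 CPM in DZ cKO and 329 ± 54.4 CPM in DZ control libraries. The log2 fold changes, cKO over control, were 0.16 (95% interval -0.19 to 0.52; adjusted p = 0.759) and 0.21 (-0.14 to 0.56; adjusted p = 0.709). Cd38 averaged 174 ± 58.0 CPM in LZ cKO and 142 ± 25.3 CPM in LZ control libraries, with a log2 fold change of 0.29 (-0.21 to 0.78) in the light and 0.03 (-0.47 to 0.53) in the dark zone. Klf2 was far less settled without a day block: 223 ± 121 CPM in LZ cKO and 129 ± 49.9 CPM in LZ control libraries, and 117 ± 74.4 CPM in DZ cKO and 61.8 ± 32.0 CPM in DZ control libraries. The fitted difference was 0.79 ± 0.48 log2 units in the light (adjusted p = 0.522) and 0.92 ± 0.48 in the dark zone (adjusted p = 0.507), positive on 4 of 4 days in the light and 3 of 4 days in the dark zone, with intervals of -0.22 to 1.80 and -0.10 to 1.94. With the day block, edgeR gave 0.69 ± 0.21 in the light zone (adjusted p = 0.0795) and 0.81 ± 0.21 in the dark zone (adjusted p = 0.0579). Neither was a call.

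Of the fate regulators, Hhex had a log2 fold change, cKO over control, of 0.25 (-0.58 to 1.08) in the light and 0.28 (-0.57 to 1.13) in the dark zone, and was the higher in value in cKO on 4 of 4 and 3 of 4 days. Ski averaged 8.31 ± 2.96 CPM in LZ cKO and 5.26 ± 1.502 CPM in LZ control libraries, and 5.25 ± 2.80 CPM in DZ cKO and 5.24 ± 3.49 CPM in DZ control libraries, with log2 fold changes of 0.66 ± 0.50 and 0.00 ± 0.50. Zbtb32 was lower in value in cKO in both zones, with 6.27 ± 0.88 CPM in LZ cKO and 9.42 ± 3.49 CPM in LZ control libraries, and 2.94 ± 0.77 CPM in DZ cKO and 4.47 ± 1.44 CPM in DZ control libraries. The log2 fold changes were -0.59 ± 0.29 (adjusted p = 0.392) and -0.60 ± 0.29 (adjusted p = 0.453). Zbtb32 lies on chromosome 7 at 5.69 Mb from Cd79a, the site of the Cre insertion, and so on the chromosome that carries the altered locus in cKO mice.

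Among the memory subset markers, Pdcd1lg2 averaged 16.6 ± 3.89 CPM in LZ cKO and 12.4 ± 0.70 CPM in LZ control libraries, and 10.9 ± 1.91 CPM in DZ cKO and 8.27 ± 1.26 CPM in DZ control libraries. Its log2 fold change was 0.43 ± 0.18 in LZ (edgeR, adjusted p = 0.318) and 0.40 ± 0.18 in DZ (edgeR, adjusted p = 0.42), and it was higher on 3 of 4 days in each. PD-L2 is also made by dendritic cells and macrophages. The summed level of 7 dendritic cell markers was 120 to 162 CPM in LZ cKO and 56.8 to 85.2 CPM in LZ control libraries, and 78.6 to 120 CPM in DZ cKO and 63.0 to 84.6 CPM in DZ control libraries, and none of the 7 was at 0 in any group. Most of each sum was 1 gene, Flt3, a receptor tyrosine kinase of progenitors and dendritic cells, at 125 ± 14.7 CPM in LZ cKO and 56.7 ± 7.68 CPM in LZ control libraries, and 80.1 ± 9.84 CPM in DZ cKO and 58.7 ± 1.74 CPM in DZ control libraries. Flt3 was called in the light zone (1.14 ± 0.11, adjusted p = 8.07e-05), and none of the other 6 was called between genotypes, with Clec9a and Xcr1 at -2.73 and -0.23 there. The part of dendritic cells and macrophages in the Pdcd1lg2 values was not tested. In 1 alternative the 5 libraries highest in macrophage markers for their group were left out (day 2 and DZ cKO replicate 1, a choice made after seeing the data). DZ cKO replicate 4, with a macrophage marker sum of 417 CPM, was kept. The Pdcd1lg2 value was then 0.29 in the light and 0.27 in the dark zone. Leaving out 1 library or day at a time gave 0.29 to 0.58 in the light and 0.29 to 0.59 in the dark zone.

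Nt5e was the single gene of the 9 whose genotype call depended on pairing by day. It averaged 21.5 ± 8.21 CPM in LZ cKO and 31.6 ± 9.12 CPM in LZ control libraries, and the cKO library was the lower on 4 of 4 days. Without a day block the log2 fold change was -0.56 ± 0.33 (adjusted p = 0.507), and with it -0.60 (adjusted p = 0.0221), where 5.5% of all tested genes were called under that fit. In the dark zone 0 of the 9 were called with the block, against 3.27% of all tested genes. In the dark zone Nt5e averaged 63.7 ± 17.7 CPM in DZ cKO and 66.2 ± 23.8 CPM in DZ control libraries, a log2 fold change of -0.06 ± 0.32. Whether the light zone value differed from the dark zone value was tested as the interaction of zone and genotype. Without the day block it was -0.50 ± 0.46 (edgeR, adjusted p = 0.9998). No gene of the 9 passed that test, and 0 of all tested genes did by edgeR (466 at an unadjusted p below 0.05) and 6 by DESeq2. With the day block, 0 of all tested genes passed it by edgeR, and the dark zone value of Nt5e was -0.02 ± 0.13. Cd80 had log2 fold changes of -0.02 ± 0.47 and -0.17 ± 0.47, cKO over control.

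**Figure D2:**
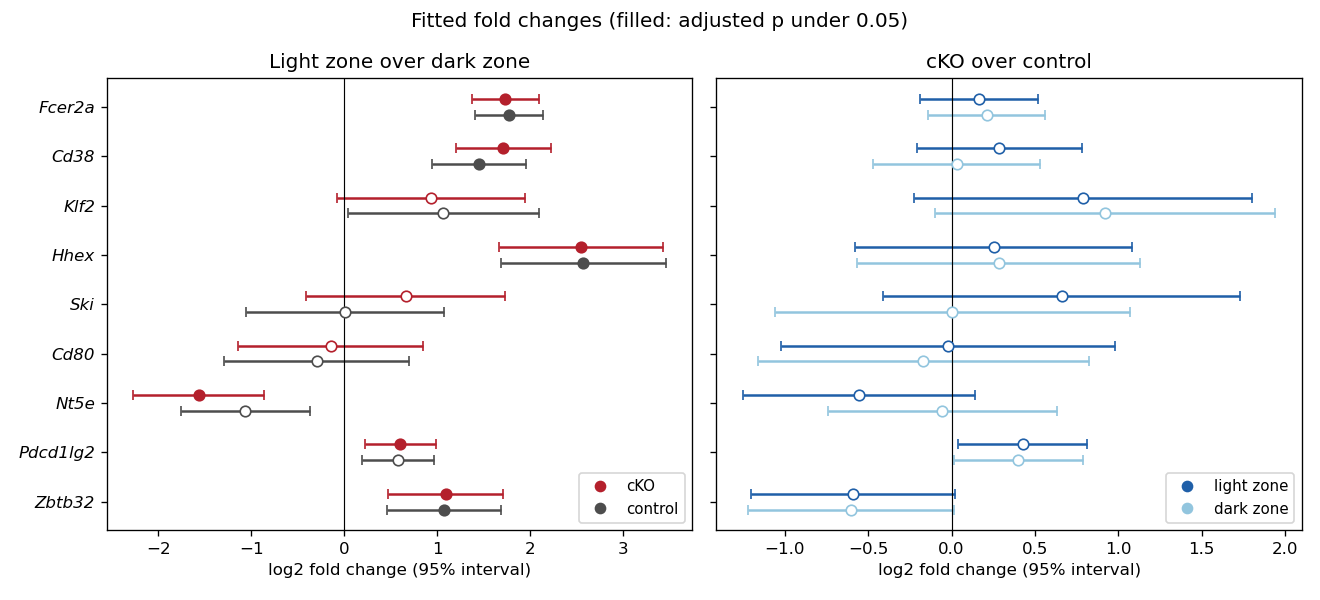
Fitted log2 fold changes (points) with 95% intervals (lines) of the 9 genes, light over dark zone on the left and cKO over control on the right; filled points have an adjusted p below 0.05. On the left 6 points in cKO and 4 in control cells are filled, and on the right none is.

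The days were not alike. In the light zone the log2 difference between the cKO and the control library of a day was 1.09, 0.89, 0.55 and 0.24 for Klf2 on days 1 to 4, and 0.73, 0.77, 0.16 and -0.09 for Pdcd1lg2. The male days thus had the larger values of both. In the dark zone the day 1 difference of Ski was 2.67, from 271 reads in the cKO against 39 in the control library, while the other 3 days gave values between -0.93 and -0.49. Fitted within males, the Klf2 value was 0.98 in the light and 1.18 in the dark zone, and within females 0.39 and 0.35, with no call in either sex. A test of the difference between sexes, which are also different sort days and cannot be told apart from them, gave 0.58 ± 0.55 in the light and 0.83 ± 0.55 in the dark zone for Klf2 (edgeR, adjusted p = 0.9999 each), and 0.71 ± 0.30 for Pdcd1lg2 in the light zone, with the same adjusted p. It was added after the values by day were seen.

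**Figure D3:**
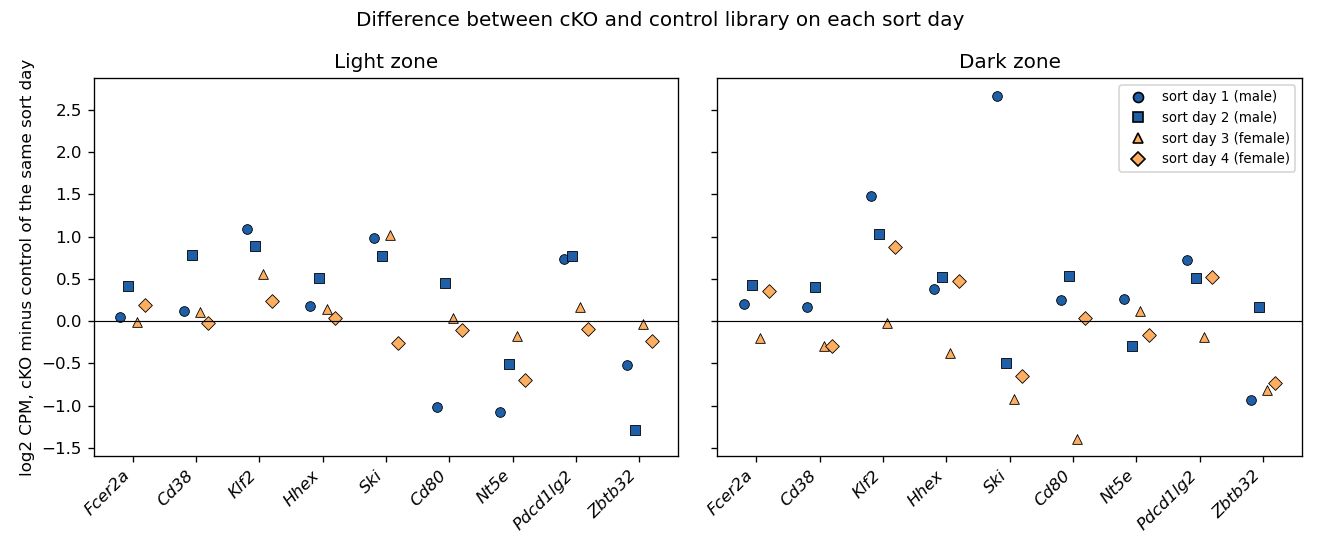
Difference in log2 CPM between the cKO and the control library of the same sort day (vertical axis) for each of the 9 genes, in the light zone (left) and dark zone (right); circles and squares are male days, triangles and diamonds female days. The light zone values of Klf2 and Hhex are all above 0 and those of Nt5e and Zbtb32 all below, and most other genes have days on both sides.

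Within groups, Fcer2a, Cd38, Klf2 and Hhex moved together from library to library. Taking each gene's deviation in log2 CPM from its group mean over the 16 libraries, the correlation was 0.92 between Fcer2a and Hhex, 0.90 between Klf2 and Hhex, 0.83 between Cd38 and Klf2, 0.80 between Fcer2a and Klf2, 0.775 between Cd38 and Hhex and 0.674 between Fcer2a and Cd38. Nt5e ran against them, at -0.682 with Fcer2a, -0.656 with Hhex, -0.463 with Klf2 and -0.389 with Cd38. These libraries share sort days, and both zones of a pool share mice, so the 16 points are not independent and no p is given. Klf2 followed other markers of naive cells too, with 0.941 for Ccr7, a chemokine receptor that guides cells to T cell zones, and 0.882 for S1pr1, a receptor for egress from lymphoid tissue, while Cd38 followed Ighm (0.901) and S1pr1 (0.819).

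Markers of naive B cells moved with these genes. The sum of 7 such markers, which include Fcer2a and Klf2, was 2182, 2507, 1541 and 1457 CPM in LZ cKO and 1766, 1690, 1414 and 1263 CPM in LZ control libraries, and 824, 1044, 550.1 and 531 CPM in DZ cKO and 570, 708, 566.0 and 413 CPM in DZ control libraries. Both male days were higher than both female days in each of the 4 groups, by the least in DZ control, where day 1 and day 3 were close. None of the 7 markers was at 0 in any group, and the part of naive B cells in the values of the 9 genes was not tested. The sum of 8 T cell markers was 150 to 374 CPM in LZ cKO and 261 to 425 CPM in LZ control libraries. In the dark zone it was 90.2 to 192 CPM in cKO and 112 to 207 CPM in control libraries. Their median log2 fold change, light over dark zone, was 1.03 in cKO and 1.45 in control cells. Of the 8, 1 (Lck) was called in each. The part of T cells in the values of the 9 genes was not tested. Ighd, which encodes the IgD of naive cells and whose product was a target of the depletion before the sort, averaged 71.5 ± 58.5 CPM in LZ cKO and 88.8 ± 47.8 CPM in LZ control libraries, and 39.3 ± 15.9 CPM in DZ cKO and 42.0 ± 11.6 CPM in DZ control libraries, with no call in any of the 4 comparisons.

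The genes most like each of the 9 by the same deviations, among tested genes of at least 3 log2 CPM on average, were Nfkbid for Fcer2a (0.921) and for Hhex (0.945), an inhibitor-of-NF-kappa-B family gene. For Klf2 they were Tcp11l2 (0.968) and Nrros (0.958), and for Nt5e Kctd20 (0.968) and Dpp8 (0.957). For Cd38 they were Gm15987 (0.904) and Ighm, for Ski Prkch (0.939) and Emilin2 (0.918), and for Cd80 Relt (0.916) and Prkx (0.91). For Pdcd1lg2 they were Coq8a (0.895) and Hexa (0.876), and for Zbtb32 Papss1 (0.887) and Mboat7 (0.804), the weakest of these likenesses.

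The wider naive and memory programme, 29 further genes of which all were tested, held genes called between zones and between genotypes. The 29 were chosen with earlier results of these data known, so their counts cannot show an enrichment. Between zones, 7 of the 29 were higher and 2 lower in the light zone in cKO cells, and 8 were higher and 2 lower in control cells, against 4.91% and 4.18% of all tested genes in cKO and 4.16% and 3.33% in control cells. The largest was Ccr6, the receptor for CCL20 used by memory precursors, at 59.6 ± 35.9 CPM in LZ cKO and 3.42 ± 2.32 CPM in DZ cKO libraries, and 37.5 ± 16.8 CPM in LZ control and 2.93 ± 2.44 CPM in DZ control libraries. Its log2 fold change was 4.12 ± 0.79 in cKO (adjusted p = 0.00371) and 3.68 ± 0.78 in control cells (adjusted p = 0.00777). Tle3, a corepressor that partners HHEX, shared the direction of Hhex, with 1.09 ± 0.25 in cKO (adjusted p = 0.0111) and 0.92 ± 0.25 in control cells (adjusted p = 0.0323). Cr2, Cd86, Il4ra, Runx3 and Gpr183 were also higher in the light zone in both genotypes, Bcl2 in control cells, and Cd44 and Cd24a were lower in both. Cr2 and Cd86 kept their zone calls in all 21 alternatives in each genotype, whereas Tle3 lost its call in 4 of 21 in cKO and 14 of 21 in control cells, Runx3 in 9 and 12, Cd44 in 6 and 12 and Cd24a in 2 and 3. Ccr6 lost it in 2 in each genotype, Gpr183 in 1 in each, Il4ra in 3 in cKO and 2 in control cells, and Bcl2 in 10 in control cells.

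Between genotypes, 3 of the 29 were higher and 0 lower in LZ cKO cells, against 0.69% and 0.393% of all tested genes, and 1 was higher and 1 lower in DZ cKO cells, against 0.31% and 0.317%. Because of how the 29 were chosen, these counts cannot show an enrichment either. The 3 in the light zone were Il9r, the interleukin-9 receptor chain carried by memory precursors, Gpr183, the oxysterol receptor that guides B cells, and Plxnb2, a semaphorin receptor, with log2 fold changes of 3.03 ± 0.41, 1.22 ± 0.21 and 0.84 ± 0.19 (adjusted p = 0.00204, 0.0105 and 0.0457). In the dark zone Il9r was higher at 2.36 ± 0.40 (adjusted p = 0.0105), and Cr2, the complement receptor CD21, was lower at -1.15 ± 0.17 (adjusted p = 0.00409). Each kept its direction in all 21 alternatives, but the call of Plxnb2 was lost in 15 of them, that of Gpr183 in 8, that of Il9r in 1 in the light and 7 in the dark zone, and that of Cr2 in 5. The median of the 29 was 0.29 in the light and 0.24 in the dark zone. Of 11 tested genes of germinal centre identity, Basp1 was lower in LZ cKO cells (-0.74 ± 0.17, adjusted p = 0.0498, lost in 14 of 21 alternatives) and none was called in the dark zone, while Bcl6, the factor that maintains the germinal centre programme, had log2 fold changes of -0.14 ± 0.14 and -0.32 ± 0.14, cKO over control, without a call.

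PTBP1 crosslink sites were read from the list summed over the 5 preparations, which holds 244659 sites and 432167 cDNAs (unique crosslinked fragments) in the authors' count per site. Sites were counted within each gene's span on its own strand, and 98% of all sites in tested spans lay on the strand of the gene. Of the 9 genes, 7 had at least 1 site, against 49.3% of the 10430 tested genes with a span and strand. The 486 sites were spread very unevenly: 82.7% lay in Cd38. Transcript levels in LPS-stimulated cells were not measured, so site numbers mix contact with abundance, and no control immunoprecipitation was used here.

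Cd38 had 402 sites and 672 cDNAs over its span of 43566 bases. At 9.23 sites per kb it exceeded 99.7% of the tested genes, and 46 tested genes had more sites. Sites were listed for it in all 5 preparations, with 35, 55, 8, 72 and 40 sites, and 32 positions recurred in at least 2 of these lists. The last 2000 bases of the span held 144 of the sites and 290 of the cDNAs, 43.2% of the total. The strongest site, at chr5:43911395 on the plus strand, carried 23 cDNAs and was in 3 of the 5 lists. A group of 41 sites with 106 cDNAs lay between 41713 and 41853 bases from the start, and its sites at 43910632, 43910630 and 43910615 carried 14, 12 and 10 cDNAs and were each in 4 of the 5 lists. Other sites were scattered over the body of the gene in 37 groups in all, separated by gaps of over 100 bases, and 281 of the 402 rested on 1 cDNA. No site lay in the overlap with Gm16015.

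Zbtb32 had 54 sites and 83 cDNAs in a span of 13140 bases, or 4.11 sites per kb, above 98.3% of the tested genes. Of these, 45 sites with 71 cDNAs lay in a single group between 9948 and 10425 bases from the annotated start, the strongest with 5 cDNAs. The sites of 5 cDNAs, at 30592668 and 30592641, were in 0 and 1 of the 5 lists. Sites were listed in 4 of the 5 preparations, and 2 positions recurred in at least 2 of them. Fcer2a had 22 sites and 27 cDNAs, 1.58 per kb, above 94% of the tested genes, with 10 sites of 1 cDNA each between 9581 and 9647 bases from its start and a strongest site of 4 cDNAs. Support was thinner there, since 2 of the 5 lists held any site and no position was in both.

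The remaining genes had few or no sites. Klf2 had 3 adjacent sites with 4 cDNAs, Ski 2 with 3 cDNAs, Cd80 2 with 2 cDNAs and Pdcd1lg2 1 with 3 cDNAs. Hhex and Nt5e had none, or 0 and 1 with the span extended by 1000 bases, although a list of called sites sets no limit on contacts below its threshold. The annotation used here holds spans without exons, so sites could not be placed in exons, introns or untranslated regions, and the sequence around them was not used here.

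**Figure D4:**
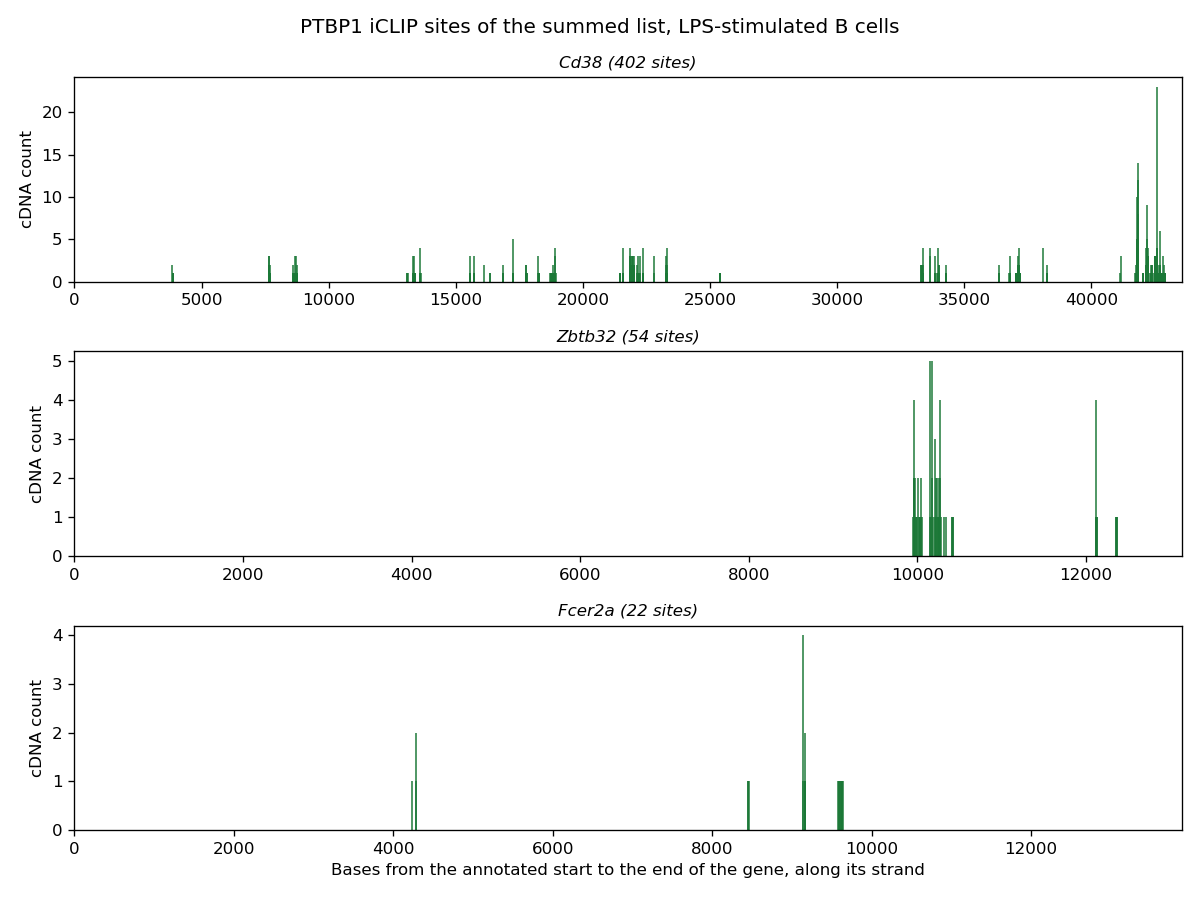
cDNA count (vertical axes) of each PTBP1 site in Cd38, Zbtb32 and Fcer2a against the number of bases from the annotated start along the gene's strand (horizontal axes, each to the end of its span). The tallest sites of Cd38, up to 23 cDNAs, stand in the last 2000 bases. Those of Zbtb32, with 5 cDNAs, stand in a single narrow group, and a site of 4 cDNAs stands outside it at 12122 bases.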

How the data were processed

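The 16 mRNA libraries were made from 2 ng of total RNA with a SMART-Seq v4 kit, per the labels' protocols, and reads were handled with Trim Galore 0.4.2, HISAT2 and HTSeq on GRCm38, per the submitters' processing notes. The deposited files hold whole read counts per Ensembl gene. Lines naming no gene held 41.4% to 49.8% of each library's total and were left out. For iCLIP, Bowtie is named by the same notes, and the deposited site score is the authors' signed cDNA count per position in mm10 with Ensembl 75, at a false discovery rate below 0.05 from 100 permutations within 15 nt, per the file headers. Counts were fitted with edgeR 4.0.16 (filterByExpr with a minimum count of 10, TMM, robust quasi-likelihood, 4 group means over 16 libraries), and SE was derived from the F statistic. DESeq2 1.42.0 was an alternative. The scripts were tested on simulated data. Symbols were matched for 47224 of 47729 identifiers. Replicate libraries differed by more than sampling noise (chi-square per degree of freedom 23.8 to 183). Replicate numbers are sort days per the labels, so numbers pair libraries. Deviations from group means of same-numbered libraries correlated at r 0.0944 to 0.39, and libraries of different numbers were not compared. The members and gene lists were chosen with earlier results of these data known, and the 9 are all named. p-values measure spread between pools of mice. Sequences are from RefSeq (GRCm38.p6), which held windows for all 9 genes. The sources used here state neither the counting mode nor the sort gates.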

Additional observations from a re-analysis of the deposited data

Results flagged for a closer look

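Cd80 in the DZ control group was the single value standing apart among 36 groups of 4 libraries examined with Dixon's ratio. Its replicate 3 gave 2.31 CPM, from 70 reads, while the other 3 libraries gave 1.22, 1.17 and 1.02 CPM, and its gap to the nearest of them was 0.846 of the group's range. That is above the 95% critical value of the ratio for 4 samples, which chance passes in about 1 of 20 groups.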

How the results depend on the processing

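Of 756 alternative values of the fold changes of the 9 genes, 651 kept direction and side of the threshold, 42 lost a call, 11 gained one and 52 changed sign. None of those that changed sign had an adjusted p below 0.688. Fcer2a, Cd38 and Hhex kept their zone calls in both genotypes in all 42 alternatives each. Cd80 rests on 15 to 77 reads per library, which limits what its values can show.

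With the replicate block (sort day), genes called numbered 868 in LZ and 517 in DZ for cKO against control, and 2727 in cKO and 2166 in control for the zones. The 9 genes gave 1 call in LZ cKO against control and 7 for the zones in control cells, and Cd38 in DZ cKO against control was -0.0144. The block changed no other call of the 9 than those given above for Nt5e, Klf2 and Pdcd1lg2.

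DESeq2 called 585 and 491 genes in LZ and DZ cKO against control, 2214 for the zones in cKO and 6 for the interaction. It also called Nt5e and Pdcd1lg2 for the zones in control cells. Without a filter on low counts 102 genes were called in LZ cKO against control. With only the 2 groups compared in the fit, 98 and 52 genes were called in LZ and DZ cKO against control and 820 for the zones in cKO. Ski was -0.000996 with upper-quartile scaling and -0.00305 with the stricter filter in DZ cKO against control, and -0.00134 with the stricter filter for the zones in control cells.

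Within males, 3 and 2 genes were called in LZ and DZ cKO against control, and 451 (3 of the 9) and 288 for the zones in cKO and control. Cd80 was then 0.00578 in LZ and 0.42 in DZ cKO against control and 0.27 for the zones in control cells, where Ski was -0.12. Within females, the counts were 9, 4, 364 and 257. In DZ cKO against control Cd38 was then -0.29, Hhex -0.0854 and Ski -0.78. With the 5 libraries highest in macrophage markers for their group left out, chosen after seeing the data, 25 and 23 genes were called in LZ and DZ cKO against control, 614 and 675 for the zones in cKO and control, and 3 of the 9 for the zones in cKO. In DZ cKO against control Fcer2a was then -0.0497, Cd38 -0.23, Hhex -0.28, Ski -0.38 and Nt5e 0.24.

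Leaving out 1 library or day at a time, genes called ranged over 17 to 137 in LZ and 23 to 100 in DZ cKO against control, 672 to 1440 for the zones in cKO, 576 to 1150 in control and 0 to 1 for the interaction. The 9 genes gave 3 to 6 zone calls in cKO and 3 to 4 in control. In DZ cKO against control Cd38 ranged over -0.19 to 0.17, Cd80 over -0.45 to 0.32, Hhex over -0.0843 to 0.51, Nt5e over -0.26 to 0.17 and Ski over -0.65 to 0.48. Cd80 ranged over -0.62 to 0.22 in LZ cKO against control, -0.74 to 0.16 for the zones in cKO and -0.61 to 0.17 in control, where Ski ranged over -0.32 to 0.49. The cause was not tested.

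The iCLIP sites of the 9 genes numbered 34 when required in at least 2 preparations and 4 when required to hold at least 10 cDNAs. With spans extended by 1000 bases Klf2 had 6 sites instead of 3 and Nt5e 1 instead of 0, and the other 7 genes had the same number.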
